A study of Mus musculus with 217 samples.

Results

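The effect of mutant huntingtin on the striatum was measured by RNA-Seq in LacQ140 mice that were given IPTG from early embryonic life and never withdrawn from it, against WT mice given IPTG in the same way (WT + IPTG), all at the age of 6 months. The libraries were chosen by tissue, age and group label. They were 20 of the 217 libraries of the series, 10 mice a group with 5 females and 5 males in each, and belonged to a set of 50 striatal libraries of that age that were fitted together. All mice were C57BL/6 by their labels (substrain C57BL/6J) and carried a transgene that expresses a modified E. coli lac repressor from the beta-actin promoter (beta-actin-LacIR tg). LacQ140 mice had the genotype Hdh(LacO-140Q/+), with lac operators around the start site of a knocked-in Htt allele that holds an expanded polyglutamine tract, beside 1 normal allele. WT + IPTG mice had the genotype Hdh(LacO-+/+), with no expanded allele. IPTG keeps the repressor off the operators, so the mutant allele was expressed throughout life in the LacQ140 mice, and WT + IPTG mice controlled for the drug itself. Each library held total RNA of 1 right striatum, and the labels put all of them in 1 batch.

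Most neurons of the striatum are spiny projection neurons, GABAergic cells that join glutamate input from the cortex with dopamine input from the midbrain. Those of the direct pathway carry the dopamine receptor Drd1 and the substance P precursor Tac1, and those of the indirect pathway carry Drd2, the adenosine receptor Adora2a and the enkephalin precursor Penk. Both kinds make cAMP through the adenylyl cyclase Adcy5 and degrade it through phosphodiesterases such as Pde10a, and in Huntington's disease these cells are lost earlier than the neighbouring interneurons.

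Total counts were 39311720 to 58941642 (median 51359326) in the LacQ140 libraries and 43360764 to 63600039 (median 51754557) in the WT + IPTG libraries. Levels are given as CPM, a gene's count relative to the total of its library, scaled by TMM factors, for each gene across mice, and not as levels per length between genes. The tissue label held up against its markers, as Ppp1r1b, the DARPP-32 phosphatase inhibitor of spiny neurons, was at 1621 to 2995 CPM in all 20 libraries, while the cortical neuron gene Neurod6 was at 0.136 to 4.72 CPM. Some libraries stood apart. The summed level of 10 thalamic and hypothalamic neuron genes was 28.97 to 219.8 CPM (median 65.8) in WT + IPTG mice and 25.6 to 58.4 CPM (median 33.7) in LacQ140 mice, and 5 WT + IPTG libraries (F5, M1, M2, M3 and M5) lay above every LacQ140 library. The part of this RNA in the results was not tested, and the counts of each group below were therefore also taken without these 5 libraries, an alternative chosen after seeing the data, and against WT mice without IPTG as the control. Ttr, a marker of choroid plexus, was at 688 CPM in WT + IPTG M5 and at no more than 64.9 CPM in any other of the 20 libraries. LacQ140 F5 was the outlying mouse of its group for many of the genes described below.

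The level of Htt (ENSMUSG00000029104, chromosome 5, 34761740 to 34912534 on GRCm38) was 92.6 to 128 CPM (median 112) in WT + IPTG mice and 86.0 to 115.7 CPM (median 99.6) in LacQ140 mice. The groups overlapped and the difference did not pass the test (change of -0.12 on the log2 scale, SE 0.0671, adjusted p = 0.283). The counts join both alleles, so they do not show the mutant allele by itself.

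A gene was called when its adjusted p in edgeR's quasi-likelihood test was under 0.05 and its level differed by at least 1.2-fold, after genes called for IPTG alone in WT mice were taken out. Of 35808 genes tested, 2722 (7.6%) were called, 1387 risen (3.87%) and 1335 fallen (3.73%). The test for IPTG alone compared WT + IPTG mice with WT mice without it and called 209 genes (0.584%). For that reason 118 genes that passed the test for LacQ140 were left out. Of the 10 thalamic and hypothalamic genes 3 were among the 209, and the part of thalamic RNA in these calls was not tested. Among the 14729 genes with a mean of at least 1 CPM, 1066 rose (7.24%) and 1109 fell (7.53%), and these shares are the background for the gene groups below. Most changes were small: 122 of the risen and 176 of the fallen genes moved by at least 1.5-fold, and 12 and 22 by at least 2-fold. The 10 LacQ140 mice and the 10 WT + IPTG mice did not overlap for 386 genes (2.62%), of which 160 were called risen and 173 called fallen. Leaving out the 5 WT + IPTG libraries high in thalamic genes left 1635 calls, and with WT mice without IPTG as the control 2043 genes were called. In lists with 3 or fewer calls in a direction, leaving out 1 mouse moved several counts by 1 or 2. No gene that was called in both the main comparison and one of these changed its direction.

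**Figure D1:**
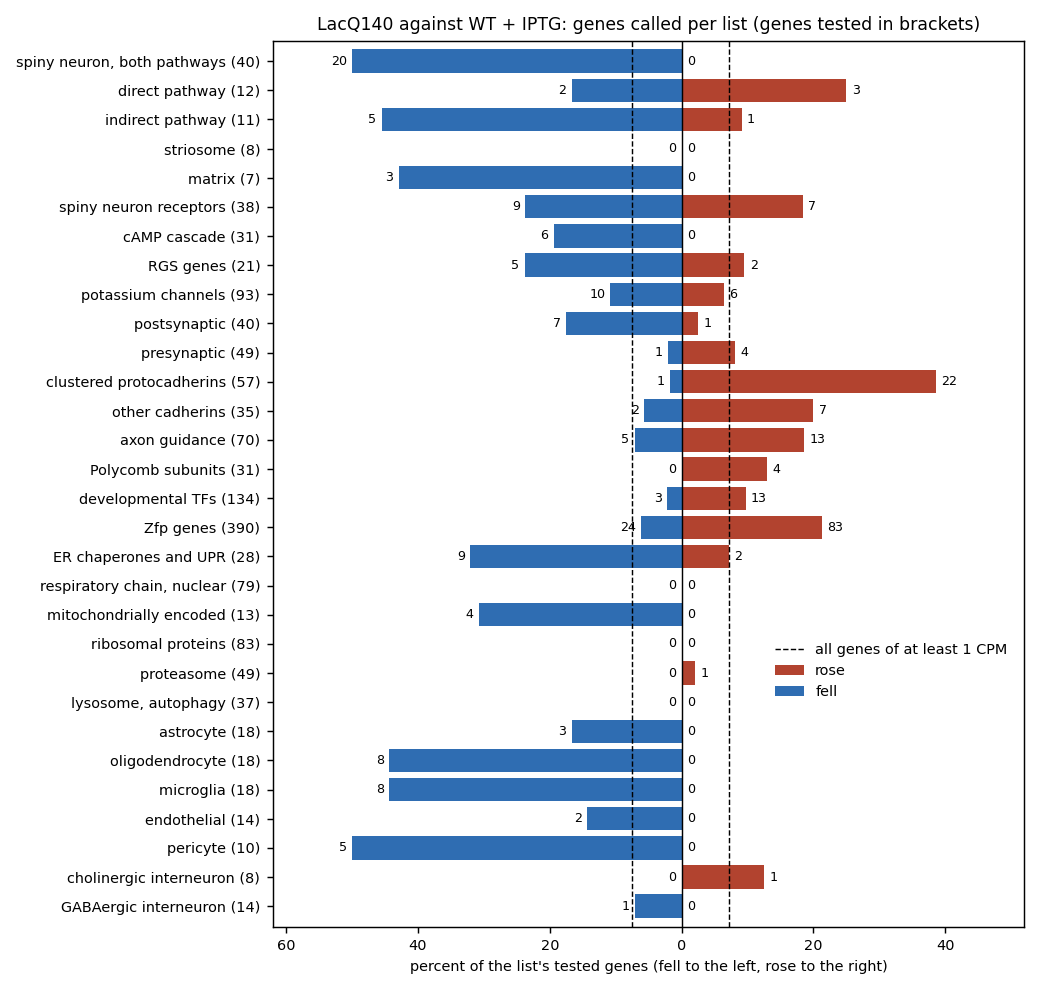
Share of each gene list that rose (red, to the right) or fell (blue, to the left) in LacQ140 against WT + IPTG striatum, in percent of the list's tested genes, with the number of genes at each bar and the background over all genes of at least 1 CPM as dashed lines (7.24% and 7.53%). Spiny neuron, oligodendrocyte, microglia, pericyte and endoplasmic reticulum lists reach far to the left, clustered protocadherins and Zfp genes to the right, and ribosomal proteins and the nuclear-encoded respiratory chain show no bar.

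Genes that mark spiny projection neurons of both pathways were lower in LacQ140 mice. Of 40 such genes 20 fell and none rose, against 7.53% fallen in the background, and 36 of the 40 estimates were negative, with a median log2 fold change of -0.29 against -0.005 for all genes of at least 1 CPM. Their summed level was 20310.4 to 27252 CPM (median 23174) in WT + IPTG mice and 16000.1 to 21269.5 CPM (median 19258) in LacQ140 mice, a decrease of the mean by 21.1%, and the groups overlapped. The number of fallen genes was 28 without the 5 libraries high in thalamic genes and 27 against WT mice without IPTG. In bulk tissue fewer cells of a type and less RNA per cell cannot be told apart, here and in every cell type result below.

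Several signalling genes of this list fell without overlap between the groups. Arpp21, a cAMP-regulated phosphoprotein, was at 1268 to 1713 CPM (median 1504) in WT + IPTG mice and at 847 to 1108 CPM (median 1002) in LacQ140 mice (change of -0.60 on the log2 scale, SE 0.0476, adjusted p = 9.50e-15). Arpp19, whose phosphorylated product inhibits protein phosphatase 2A, was at 683 to 894 CPM (median 769) and 353 to 493.1 CPM (median 452) in the same order (change of -0.81 on the log2 scale, SE 0.0714, adjusted p = 2.90e-13). For both genes every LacQ140 mouse lay below every WT + IPTG mouse. The same held for Pde10a, the striatal phosphodiesterase, at 932 to 1368 CPM (median 1097) against 548 to 924 CPM (median 774) (change of -0.60 on the log2 scale, SE 0.0781, adjusted p = 6.58e-08), and for Scn4b, a beta subunit of sodium channels, at 1222 to 1744 CPM (median 1453) against 702 to 1123 CPM (median 935) (change of -0.69 on the log2 scale, SE 0.0766, adjusted p = 7.03e-10). Homer1, a scaffold of postsynaptic glutamate receptors with an activity-induced short form, fell from 158 to 95.2 CPM without overlap (change of -0.73 on the log2 scale, SE 0.0821, adjusted p = 8.75e-10). Pde1b, a calcium-dependent phosphodiesterase, fell by 24.7% and the cyclase Adcy5 by 21.6% (log2 fold changes -0.41 and -0.35), with overlapping groups. Ppp1r1b fell by 18.6% (change of -0.30 on the log2 scale, SE 0.0852, adjusted p = 0.012), and this call was lost without the mouse WT + IPTG M4, at a log2 fold change of -0.25. The transcription factors of these neurons, Bcl11b, Foxp1, Foxp2, Rarb and Meis2, were not called, with log2 fold changes between -0.17 and 0.03.

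**Figure D2:**
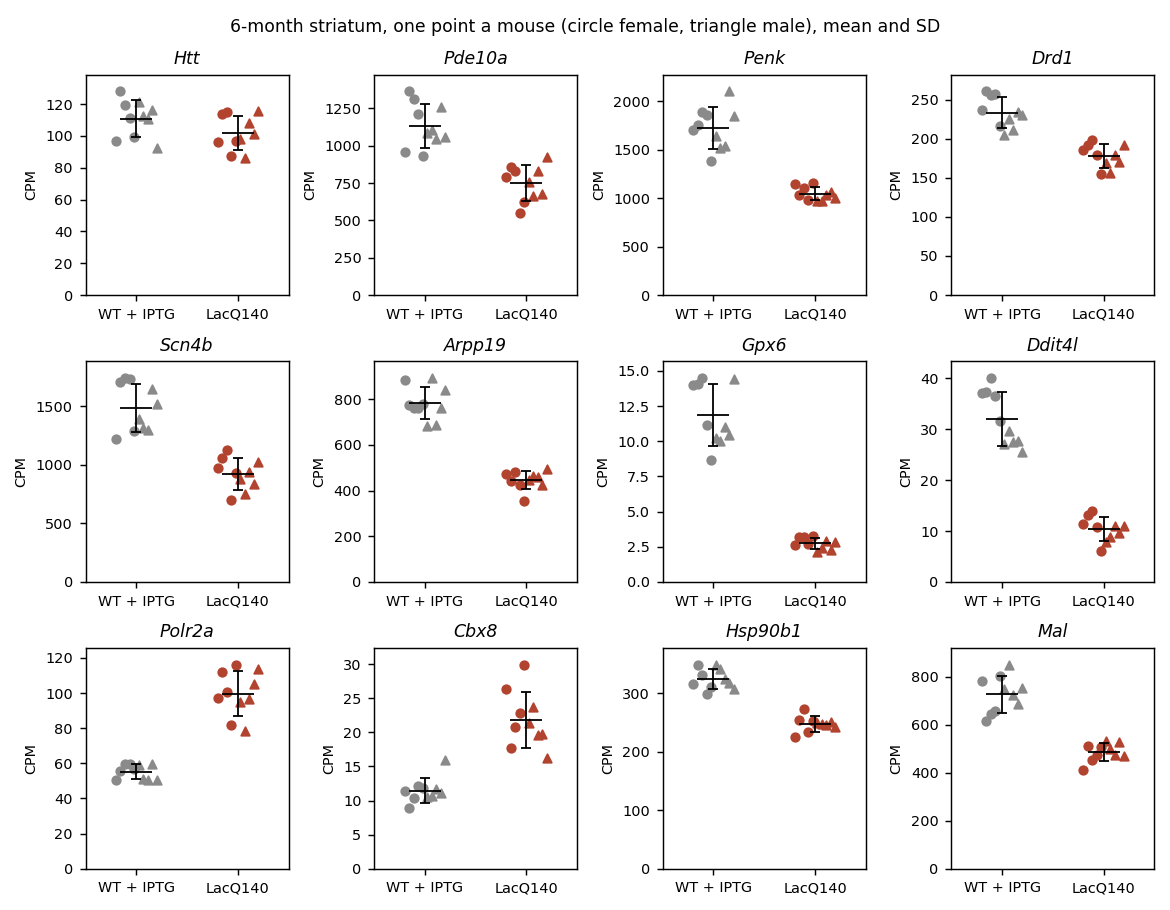
CPM of 12 genes in each mouse (circles females, triangles males; grey WT + IPTG, red LacQ140), with the group mean and SD over 10 mice and axes that start at 0. Htt overlaps between the groups, while for Pde10a, Penk, Drd1, Scn4b, Arpp19, Gpx6, Ddit4l, Hsp90b1 and Mal every LacQ140 mouse lies below every WT + IPTG mouse, and for Polr2a and Cbx8 above.

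Chaperones of the endoplasmic reticulum, which fold secreted and membrane proteins, were lower as a group. Of 28 genes of this compartment and of the unfolded protein response, 9 fell and 2 rose, against 7.53% and 7.24% in the background. Their summed level was 2428 to 2818 CPM (median 2613) in WT + IPTG mice and 2088 to 2368 CPM (median 2212) in LacQ140 mice, and no LacQ140 mouse reached the lowest WT + IPTG mouse. Hsp90b1, the chaperone GRP94, was at 298.8 to 349 CPM (median 321) and 225 to 273 CPM (median 249) (change of -0.39 on the log2 scale, SE 0.0489, adjusted p = 1.85e-08). The protein disulfide isomerases Pdia6 and Pdia4 fell by 23.1% and 28.1% (log2 fold changes -0.38 and -0.48), and the calcium-binding chaperone Calr by 18.1% (-0.29, adjusted p = 2.82e-04). Pdia6 did not overlap between the groups and Calr did. Xbp1, a transcription factor that induces many of these chaperones, was at 91.3 to 114 CPM (median 101) and 73.3 to 91.2 CPM (median 79.8) (change of -0.32 on the log2 scale, SE 0.0554, adjusted p = 2.02e-05), and Ern1, the sensor that activates Xbp1 by splicing, rose from 7.93 to 10.02 CPM (0.34, adjusted p = 0.0017). The other fallen members, Hspa5, Atf6, Sdf2l1 and Creld2, are outside the rule that chose the named genes and were picked after their values were seen. Hspa5, the chaperone BiP, was at 269.9 to 376 CPM (median 333) and 209 to 279.8 CPM (median 238.8) (change of -0.40 on the log2 scale, SE 0.0729, adjusted p = 6.36e-05). Of the genes of the PERK arm, Atf4, Ddit3 and Asns were not called, at log2 fold changes of -0.02, -0.13 and 0.08. Sesn2, the other risen member, lost its call in 9 of 20 fits that each left out 1 mouse. Without the 5 libraries high in thalamic genes 8 members fell, and Calr was not among them. Against WT mice without IPTG 6 fell, and Calr, Xbp1 and Hspa5 were not called, nor was Ern1 (0.26).

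The promoters of the fallen chaperones were read for the ER stress element, a site of the unfolded protein response written CCAAT, any 9 bases, then CCACG, searched on both strands. Of 11072 genes of at least 1 CPM with a RefSeq promoter on GRCm38.p6 (250 bases before to 50 after the start), 18 held it, or 0.163%. In the chaperone list it was found in 7 of 25 promoters, those of Hspa5, Hsp90b1, Pdia6, Calr, Creld2, Canx and Dnajc3. The first 5 of these fell, and Canx (-0.14) and Dnajc3 (-0.21) stayed within the 1.2-fold bound at negative log2 fold changes. Over all 18 genes 6 fell and none rose, against 7.12% fallen and 6.92% risen among the 11054 genes without the element. Of these 6, 5 are the fallen chaperones already counted above. The sixth is the X-linked Xlr3a (-0.92, adjusted p = 0.011), which has close copies nearby that could share its reads. The promoters of 4 of the 5 fallen chaperones with a match are shown, with both parts of each match in capitals and each sequence 5′ to 3′ on the strand of its gene. They come from chr10:86705395-86705694 (Hsp90b1, minus strand), chr2:34771840-34772139 (Hspa5, plus strand), chr12:17266339-17266638 (Pdia6, plus strand) and chr8:84846882-84847181 (Calr, minus strand). Hsp90b1 holds 2 matches, and Hspa5, Pdia6 and Calr 1 each. A match in these letters is a description of the window and says nothing about binding.
Hsp90b1: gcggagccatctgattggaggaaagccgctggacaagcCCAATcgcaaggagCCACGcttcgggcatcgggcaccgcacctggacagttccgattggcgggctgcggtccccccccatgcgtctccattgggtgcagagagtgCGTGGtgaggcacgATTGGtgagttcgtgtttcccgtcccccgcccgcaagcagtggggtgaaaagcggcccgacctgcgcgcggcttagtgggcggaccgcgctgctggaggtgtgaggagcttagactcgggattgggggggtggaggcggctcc
Hspa5: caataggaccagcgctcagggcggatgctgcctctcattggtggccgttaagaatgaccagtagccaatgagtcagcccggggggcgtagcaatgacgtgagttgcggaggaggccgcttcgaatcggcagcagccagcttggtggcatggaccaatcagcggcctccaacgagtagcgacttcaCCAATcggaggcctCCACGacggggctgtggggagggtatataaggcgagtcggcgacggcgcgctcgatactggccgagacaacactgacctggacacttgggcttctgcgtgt
Pdia6: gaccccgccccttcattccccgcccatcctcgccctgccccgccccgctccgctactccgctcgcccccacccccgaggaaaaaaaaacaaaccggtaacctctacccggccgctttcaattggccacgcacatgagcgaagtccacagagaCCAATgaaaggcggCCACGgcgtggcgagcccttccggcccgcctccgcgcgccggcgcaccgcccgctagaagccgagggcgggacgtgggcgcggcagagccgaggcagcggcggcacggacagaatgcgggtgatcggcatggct
Calr: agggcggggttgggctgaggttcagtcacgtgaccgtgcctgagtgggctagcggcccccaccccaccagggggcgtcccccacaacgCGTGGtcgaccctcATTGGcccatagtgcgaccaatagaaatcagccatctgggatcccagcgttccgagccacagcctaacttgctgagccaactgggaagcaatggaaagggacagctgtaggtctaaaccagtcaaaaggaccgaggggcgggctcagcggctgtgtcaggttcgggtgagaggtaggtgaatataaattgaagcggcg

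**Figure D3:**
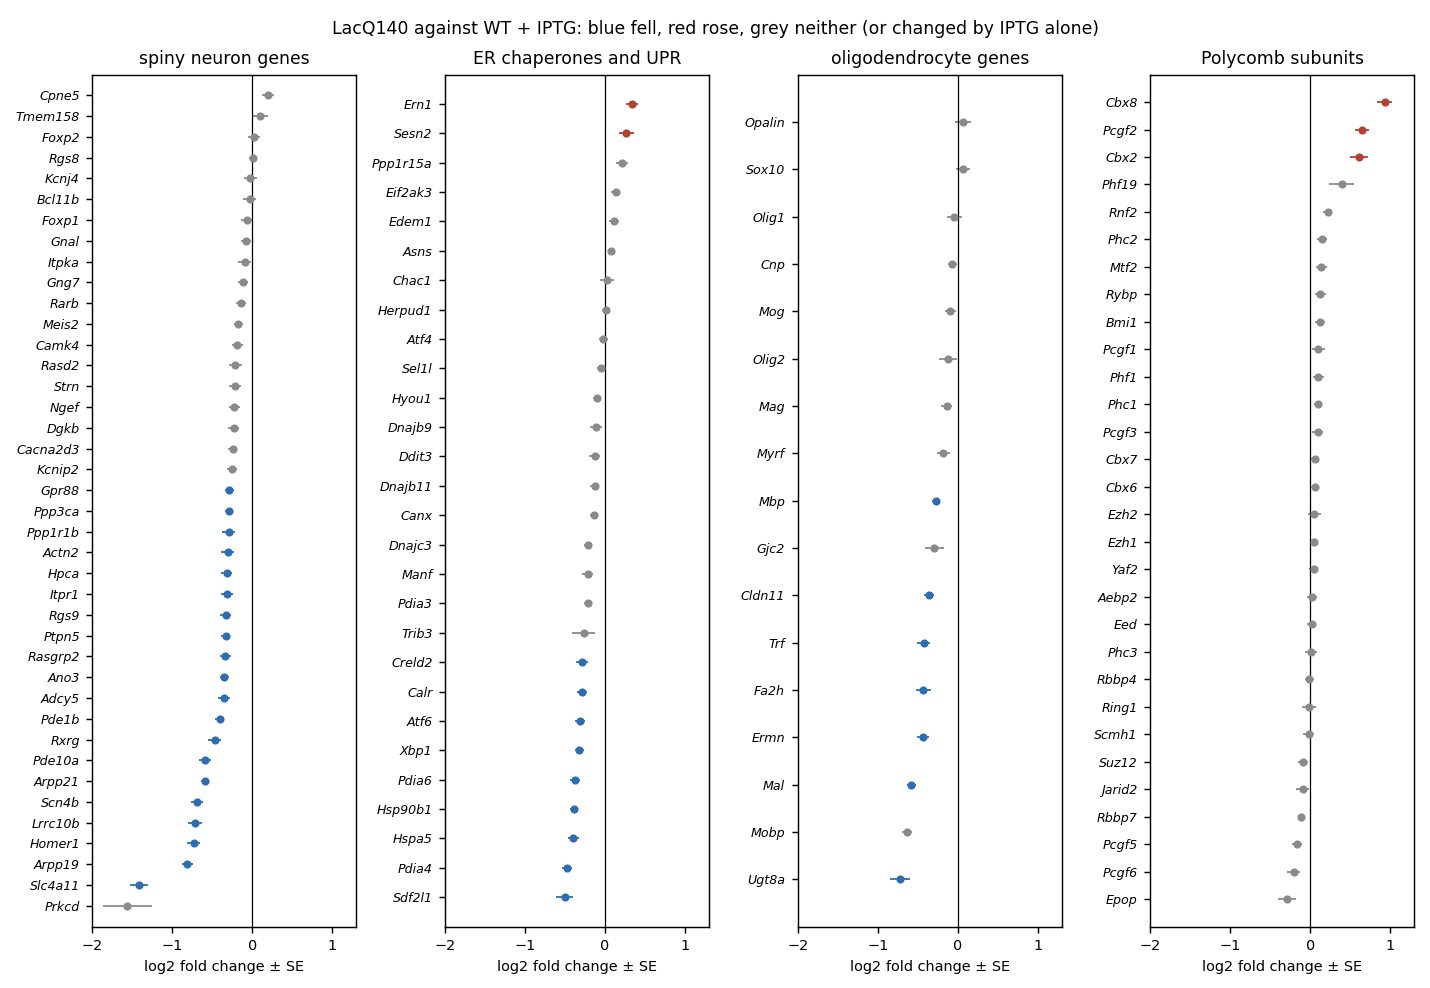
Log2 fold change of LacQ140 against WT + IPTG with its standard error for the reported members of the spiny neuron, endoplasmic reticulum, oligodendrocyte and Polycomb lists (blue fell, red rose, grey neither or changed by IPTG alone). Spiny neuron and oligodendrocyte members lie almost all left of 0, 9 chaperone list members fall while Ern1 and Sesn2 rise, and Cbx8, Pcgf2 and Cbx2 lie to the right among the Polycomb subunits.

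Markers of each output pathway held fallen and risen genes. In the indirect pathway list 5 of 11 genes fell and 1 rose (Sp9, 0.42, adjusted p = 0.021, not called in either alternative above), and the summed level was 2040 to 3022 CPM (median 2538) in WT + IPTG mice and 1522 to 1868 CPM (median 1695) in LacQ140 mice, a decrease of the mean by 33.1% with no overlap. In the direct pathway list 2 of 12 fell and 3 rose (2 risen without the libraries high in thalamic genes and 1 against WT mice without IPTG, and 1 fallen without LacQ140 M3 or WT + IPTG M2), and the summed level was 958 to 1102 CPM (median 1038) in WT + IPTG mice and 942 to 1034 CPM (median 984) in LacQ140 mice, 4.12% lower at the mean with overlap. The difference between the 2 pathways was not tested. Penk gave most of the counts in the first sum, at 1389 to 2109.5 CPM (median 1733) in WT + IPTG and 967 to 1157 CPM (median 1038) in LacQ140 mice (change of -0.72 on the log2 scale, SE 0.0530, adjusted p = 8.50e-16). Drd2 was at 168 to 262 CPM (median 211) and 119.7 to 195 CPM (median 156) (change of -0.45 on the log2 scale, SE 0.0832, adjusted p = 7.00e-05), with overlap, and the orphan receptor Gpr6 fell from 91.5 to 66.4 CPM (-0.46, adjusted p = 1.75e-06). Upb1, an enzyme of pyrimidine breakdown, fell from 6.25 to 3.44 CPM with no overlap (-0.86, adjusted p = 1.14e-09). Adora2a fell from 321 to 237 CPM (-0.44, adjusted p = 2.16e-05), a call that was lost without WT + IPTG F4 or WT + IPTG M4 (-0.41 in each fit), where the gene passed the test for IPTG alone.

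On the direct pathway side Drd1 was at 205 to 261.1 CPM (median 232.3) and 155 to 198 CPM (median 179), with no overlap (change of -0.39 on the log2 scale, SE 0.0536, adjusted p = 1.72e-07). Tac1 did not pass the test (change of 0.14 on the log2 scale, SE 0.0644, adjusted p = 0.188), nor did Pdyn, the dynorphin precursor (adjusted p = 1). The transcription factor genes Eya1 and Isl1 rose from 6.26 to 9.16 CPM and from 15.5 to 18.98 CPM (log2 fold changes 0.55 and 0.29), as did Ebf1 (0.29, adjusted p = 0.0025), which was not called without the libraries high in thalamic genes (0.20) or against WT mice without IPTG (0.17). Isl1 also marks cholinergic interneurons, and it was not called against WT mice without IPTG (0.15). None of 8 striosome genes was called, and their sum differed by -0.671%. Of 7 matrix genes 3 fell, the transcription regulator Id4 (-0.44, adjusted p = 3.32e-09, no overlap), the AMPA receptor regulator Cacng3 (-0.36, adjusted p = 2.27e-04) and the exchange factor Rasgrp2 (-0.34, adjusted p = 3.94e-04). All 3 fell without the libraries high in thalamic genes and against WT mice without IPTG as well.

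Receptors for striatal transmitters changed in both directions, 9 of 38 fallen and 7 risen. Besides the dopamine and adenosine receptors above, the cannabinoid receptor Cnr1 was at 167 to 265 CPM (median 186) in WT + IPTG mice and 96.4 to 148 CPM (median 128) in LacQ140 mice, with no overlap (change of -0.64 on the log2 scale, SE 0.0765, adjusted p = 4.34e-09). The serotonin receptor Htr1b fell from 66.1 to 42.2 CPM (-0.65, adjusted p = 1.51e-05). Among the risen genes, Htr2c, another serotonin receptor, was at 33.6 to 61.4 CPM (median 46.4) and 58.5 to 74.2 CPM (median 68.6) (change of 0.56 on the log2 scale, SE 0.0854, adjusted p = 2.02e-06), the orphan receptor Gpr149 rose from 8.90 to 13.8 CPM (0.63, adjusted p = 9.39e-09), and the nociceptin receptor Oprl1 rose from 30.1 to 38.02 CPM (0.34, adjusted p = 5.60e-05). Htr5a rose from 7.83 to 10.3 CPM (0.39, adjusted p = 1.79e-04). The number of risen receptors was 5 without the libraries high in thalamic genes and 4 against WT mice without IPTG.

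Downstream of these receptors, 6 of 31 genes of the cAMP cascade fell and none rose, Arpp19, Arpp21, Adcy5 and Ppp1r1b among them, together with the phosphatase inhibitor Ppp1r1a (-0.43, adjusted p = 5.67e-05) and the cyclase Adcy8, which is outside the naming rule. The G protein subunit Gnal, which links Drd1 and Adora2a to Adcy5, was not called (-0.08, adjusted p = 0.547). Of 18 phosphodiesterase genes 3 fell and 2 rose (1 risen without the libraries high in thalamic genes), and the risen Pde4d was at 25.7 to 31.5 CPM (median 29.3) and 34.4 to 41.8 CPM (median 37.8) with no overlap (change of 0.39 on the log2 scale, SE 0.0627, adjusted p = 6.09e-06), opposite in direction to Pde10a and Pde1b. Regulators of G protein signalling, which shorten receptor signals, fell in 5 of 21 cases and rose in 2, with 5 and 1 without the libraries high in thalamic genes and 7 and 1 against WT mice without IPTG. Their summed level was 2174 to 2489 CPM (median 2316) in WT + IPTG mice and 1639 to 1959.7 CPM (median 1799) in LacQ140 mice, with no overlap. Rgs4 was at 699 to 916 CPM (median 844) and 408 to 622 CPM (median 535) (change of -0.65 on the log2 scale, SE 0.0606, adjusted p = 2.69e-12), Rgs14 fell from 129.8 to 85.9 CPM (-0.60, adjusted p = 3.74e-08), and Rgs20 fell from 59.3 to 42.6 CPM (-0.48, adjusted p = 5.72e-07). Rgs9, the partner of D2-type receptors in spiny neurons, fell from 443 to 351 CPM (-0.33, adjusted p = 5.09e-04).

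Of 25 neuropeptide precursors 2 fell, Penk and Cck, and 1 rose, Nts. The calls of Cck and Nts depended on the libraries used: Cck (-0.90, and -0.03 without the libraries high in thalamic genes) was called in only 8 of 20 fits that each left out 1 mouse, and Nts (0.54) in 10. Sst and Npy, peptides of interneurons, were at log2 fold changes of 0.03 and -0.04 and were not called.

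Ion channel genes were called in both directions, at shares near the background for potassium and calcium channels. Of 93 potassium channel subunits 10 fell and 6 rose, or 10.8% and 6.45%, against 7.53% and 7.24% in the background. The risen number was 1 without the libraries high in thalamic genes. Kcng1, a silent subunit that modifies Kv2 channels, rose with no overlap between the groups, at 19.4 to 32.6 CPM (median 27.3) and 35.5 to 51.7 CPM (median 43.4) (change of 0.66 on the log2 scale, SE 0.0862, adjusted p = 6.10e-08). The leak channel gene Kcnk13 fell from 17.3 to 11.8 CPM (-0.55, adjusted p = 1.93e-07) and the beta subunit Kcnab1 fell from 414 to 333 CPM (-0.31, adjusted p = 3.58e-05), both without overlap. Among 14 sodium channel genes Scn4b fell and 2 rose (1 without the libraries high in thalamic genes), with Scn9a from 3.26 to 5.14 CPM (0.66, adjusted p = 5.57e-06). Among 26 calcium channel genes 1 fell, Cacng3, and 2 rose, or 3.85% and 7.69%. Without the libraries high in thalamic genes 3 calcium channel genes fell and none rose, and against WT mice without IPTG 4 fell and 2 rose.

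Of the glutamate receptor genes 1 of 18 ionotropic and 2 of 8 metabotropic receptors fell and none rose. The ionotropic call was lost in 5 of 20 fits that each left out 1 mouse, and 7 of the 8 metabotropic estimates were negative (median log2 fold change -0.28). The metabotropic receptors were Grm3, from 76.1 to 57.005 CPM with no overlap (-0.42, adjusted p = 2.18e-05), and Grm4, from 55.4 to 42.9 CPM (-0.37, adjusted p = 0.0044). Among 21 GABA receptor genes 3 fell and 2 rose, but none rose without LacQ140 F5, WT + IPTG F5, WT + IPTG M3 or WT + IPTG M5, and 1 rose in either alternative above. Gabrd, the delta subunit of extrasynaptic receptors, was at 142 to 182 CPM (median 156) and 117 to 136 CPM (median 127) with no overlap (change of -0.36 on the log2 scale, SE 0.0535, adjusted p = 9.32e-07). On the postsynaptic side 7 of 40 scaffold and kinase genes fell and 1 rose, and 11 fell without the libraries high in thalamic genes. Besides Homer1 these included the striatal phosphatase STEP, Ptpn5 (-0.34, adjusted p = 1.27e-05), the calcineurin subunit Ppp3ca (-0.29, adjusted p = 1.85e-05) and the kinase Camkk2 (-0.38, adjusted p = 1.54e-05). On the presynaptic side 1 of 49 genes fell and 4 rose, and the risen number was 2 without the libraries high in thalamic genes and 1 against WT mice without IPTG. Syp, the vesicle protein synaptophysin, was at 599 to 699.5 CPM (median 644) and 729 to 876 CPM (median 835), with every LacQ140 mouse above every WT + IPTG mouse (change of 0.35 on the log2 scale, SE 0.0463, adjusted p = 9.00e-08).

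Among genes with a mean of at least 1 on the log2 CPM scale, the largest decreases with no overlap between the groups were those of Gpx6 and Ddit4l. Gpx6 (ENSMUSG00000004341, chromosome 13, 21312125 to 21319624), a member of the glutathione peroxidase family, was at 8.68 to 14.5 CPM (median 11.1) in WT + IPTG mice and 2.12 to 3.28 CPM (median 2.76) in LacQ140 mice (change of -2.11 on the log2 scale, SE 0.160, adjusted p = 1.74e-15). Ddit4l (ENSMUSG00000046818, chromosome 3, 137621612 to 137628333), a relative of the mTOR inhibitor REDD1, was at 25.6 to 40.1 CPM (median 30.6) and 6.17 to 13.9 CPM (median 10.8) (change of -1.63 on the log2 scale, SE 0.0963, adjusted p = 3.80e-20). For both genes the highest LacQ140 mouse lay well below the lowest WT + IPTG mouse. Next in size were Tmprss6, a membrane serine protease (-1.52), the copine Cpne9 (-1.45), the transporter Slc4a11 (-1.42), the lipid transfer protein Sec14l3 (-1.27) and the keratin Krt9 (-1.25). Cpne9 was at 10.6 to 25.6 CPM (median 13.6) and 4.32 to 8.89 CPM (median 5.31), and Slc4a11 at 7.23 to 13.7 CPM (median 9.58) and 2.92 to 4.68 CPM (median 3.63). The 12 largest decreases above this level were completed by Ptprv (-1.17), Clspn (-1.14), Ryr1 (-1.13), Vwa7 (-0.9995) and Serpinb1b (-0.997), of which Ryr1 encodes an intracellular calcium release channel and Clspn a replication checkpoint protein.

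The largest increases with no overlap above the same level included genes that were low in WT + IPTG mice, and genes below it are given further on. Npcd (ENSMUSG00000089837, chromosome 15, 79789675 to 79834237) was at 0.903 to 2.05 CPM (median 1.24) and 2.77 to 6.69 CPM (median 4.02) (change of 1.55 on the log2 scale, SE 0.255, adjusted p = 8.43e-06), but its annotated span holds Cbx6 and part of Nptxr, so reads of these genes could be shared between them, and Cbx6 and Nptxr were not called. Abhd1 (ENSMUSG00000006638, chromosome 5, 30950066 to 30955091) was at 2.03 to 3.39 CPM (median 2.54) and 5.80 to 7.91 CPM (median 6.63) (change of 1.36 on the log2 scale, SE 0.146, adjusted p = 2.39e-10) and overlaps Preb on the other strand, where reads could not be told apart unless counting used the strand. Sfmbt2, a relative of Polycomb proteins, was at 1.17 to 1.92 CPM (median 1.53) and 3.13 to 5.21 CPM (median 3.77) (change of 1.295 on the log2 scale, SE 0.115, adjusted p = 3.32e-13). All 3 genes were thus low in WT + IPTG mice and higher in every LacQ140 mouse. Gm41442 (1.29), the transporters Slc45a3 (1.05) and Slc16a14 (0.96), the membrane protein Tmc3 (1.03), the troponin Tnnt2 (0.92), the RNA-binding protein Rbm11 (0.87), Spc24 (0.85), Cbx8 and Polr2a were the others of the 12. Polr2a (ENSMUSG00000005198, chromosome 11, 69733997 to 69758637), the largest subunit of RNA polymerase II, was at 50.3 to 59.8 CPM (median 56.2) in WT + IPTG and 78.3 to 116.2 CPM (median 99.0) in LacQ140 mice (change of 0.85 on the log2 scale, SE 0.0772, adjusted p = 8.62e-13). Without LacQ140 F5, the highest mouse of its group for this gene, the log2 fold change was 0.82. Slc45a3 was not called without LacQ140 F5, WT + IPTG F3 or WT + IPTG F4, where it passed the test for IPTG alone, or by DESeq2, with filterByExpr or with the transcript length slope as a covariate.

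Polycomb proteins keep developmental genes silent. Of 31 subunit genes 4 rose and none fell, and 4 rose also without the libraries high in thalamic genes and against WT mice without IPTG. Cbx8, which binds methylated histone H3, was at 8.88 to 15.9 CPM (median 11.2) and 16.2 to 29.9 CPM (median 21.1) with no overlap (change of 0.93 on the log2 scale, SE 0.0925, adjusted p = 2.09e-11). Its relative Cbx2 rose from 3.20 to 4.90 CPM (change of 0.61 on the log2 scale, SE 0.116, adjusted p = 1.04e-04), and Pcgf2, a RING finger partner of PRC1, was at 11.5 to 18.8 CPM (median 15.6) and 21.1 to 32.8 CPM (median 23.2) with no overlap (change of 0.65 on the log2 scale, SE 0.0912, adjusted p = 3.65e-07). The catalytic subunits of PRC2, Ezh1 (0.04) and Ezh2 (0.05), and its partners Eed (0.02) and Suz12 (-0.09) were not called. The mouse LacQ140 F5 was the highest of its group for Cbx2 and Pcgf2, and without it the log2 fold changes were 0.48 and 0.59. Cbx8 was not called without WT + IPTG M5 although its log2 fold change was then 0.99, because it then passed the test for IPTG alone.

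Some genes of developmental transcription factors rose, several of them from very low levels. Of 134 such genes 13 rose and 3 fell, against 3.87% and 3.73% over all genes tested. Wt1 was at 0 to 0.145 CPM (median 0.0261) and 0.301 to 1.198 CPM (median 0.597) (change of 3.90 on the log2 scale, SE 0.334, adjusted p = 8.03e-15) and Onecut1 at 0 to 0.0655 CPM (median 0.0192) and 0.0749 to 0.782 CPM (median 0.234) (change of 3.51 on the log2 scale, SE 0.459, adjusted p = 7.57e-09), without overlap. Pou4f1 rose from 0.0137 to 0.109 CPM (2.82, adjusted p = 1.79e-04). At such levels a fitted fold change depends on the prior count and is no bound, and every LacQ140 library stayed at or under 1.198 CPM for Wt1. Dlx5, which is expressed by striatal neurons, rose from 12.7 to 17.1 CPM (0.43, adjusted p = 3.95e-04), but was not called without the libraries high in thalamic genes or against WT mice without IPTG (0.33 and 0.22). Of 24 Hox genes tested 1 rose, Hoxa7 from 0.0375 to 0.229 CPM (2.62, adjusted p = 3.72e-08), and none fell. The developmental list held 8 risen and 1 fallen gene without the 5 libraries, and 7 risen and no fallen gene against WT mice without IPTG.

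Clustered protocadherins, adhesion proteins of which each neuron expresses its own combination, rose more often than they fell. Of 57 genes 22 rose and 1 fell, against 7.24% and 7.53% in the background. Without the libraries high in thalamic genes 13 rose, and against WT mice without IPTG 23 rose. Pcdhb9 was at 11.6 to 16.6 CPM (median 14.0) and 17.2 to 20.1 CPM (median 18.9) with no overlap (change of 0.43 on the log2 scale, SE 0.0513, adjusted p = 6.13e-09). Pcdhga2 rose from 16.3 to 25.3 CPM (0.64, adjusted p = 5.69e-07), Pcdhb19 from 6.97 to 9.77 CPM (0.49, adjusted p = 3.65e-07) and Pcdhb22 from 6.45 to 9.10 CPM (0.50, adjusted p = 1.53e-06), and the fallen gene was Pcdhb8 (-0.54, adjusted p = 0.0018). Neighbouring genes of these clusters are near-identical in parts and share exons, so reads could be divided between them by the counting.

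Of 35 other cadherins 7 rose and 2 fell, and Cdh18 was at 7.85 to 11.3 CPM (median 10.2) and 13.8 to 16.6 CPM (median 14.5) with no overlap (change of 0.56 on the log2 scale, SE 0.0619, adjusted p = 7.23e-10). Only 2 rose and none fell without the libraries high in thalamic genes. Of 70 genes of axon guidance 13 rose and 5 fell. The semaphorin Sema7a fell from 144 to 106 CPM with no overlap (-0.45, adjusted p = 1.39e-08), Sema4d rose from 57.9 to 72.7 CPM (0.33, adjusted p = 1.58e-05) and the ephrin Efnb1 rose from 7.77 to 11.2 CPM (0.52, adjusted p = 4.47e-06). The numbers were 6 risen and 2 fallen without the libraries high in thalamic genes and also against WT mice without IPTG, and 3 fell without WT + IPTG F2, F3, F4 or M4 alone. Wnt8b, a ligand of Wnt receptors, fell from 2.05 to 0.725 CPM with no overlap (-1.503, adjusted p = 9.39e-09) among 42 Wnt pathway genes, of which 3 fell and 6 rose, none of them risen against WT mice without IPTG. Of 44 collagens 4 rose and 3 fell, with Col25a1 at 28.5 to 35.03 CPM (median 31.4) and 36.96 to 44.5 CPM (median 40.7) (change of 0.34 on the log2 scale, SE 0.0692, adjusted p = 2.66e-04), and 2 rose and 1 fell without the libraries high in thalamic genes.

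Zinc finger genes named Zfp, most of them DNA-binding repressors, also rose more often than they fell. Of 390 tested 83 rose and 24 fell, or 21.3% and 6.15%, against 7.24% and 7.53% of all genes of at least 1 CPM, a level that 349 of the 390 reached, and 3.87% and 3.73% of all genes tested. The fallen share thus lay between these backgrounds. Zfp90 was at 12.1 to 16.8 CPM (median 14.1) and 16.9 to 22.7 CPM (median 19.9) (change of 0.48 on the log2 scale, SE 0.0626, adjusted p = 5.03e-08), Zfp316 at 12.6 to 16.1 CPM (median 15.2) and 19.8 to 22.5 CPM (median 21.1) (change of 0.51 on the log2 scale, SE 0.0669, adjusted p = 7.88e-08), and Zfp13 rose from 13.3 to 20.3 CPM (0.61, adjusted p = 2.63e-08). These 3 genes did not overlap between the groups. Zfp180 fell from 99.6 to 73.9 CPM with no overlap (-0.43, adjusted p = 2.35e-09). On chromosome 7, which holds 92 of these genes, 26 rose and 2 fell, on chromosome 6 8 of 17 rose and none fell, and on chromosome 17 4 of 46 rose and 7 fell. The numbers fell to 48 risen and 6 fallen without the libraries high in thalamic genes and to 34 and 7 against WT mice without IPTG, and without LacQ140 F5 73 rose and 15 fell. Many of these genes are paralogs with similar exons, which the counting could confuse.

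Genes of the basic cell machinery moved little. None of 79 nuclear-encoded subunits of the respiratory chain and ATP synthase, 83 cytosolic ribosomal proteins, 77 mitochondrial ribosomal proteins, 26 genes of cholesterol synthesis or 37 genes of lysosomes and autophagy was called. Against WT mice without IPTG 4 genes of cholesterol synthesis, 2 mitochondrial and 1 cytosolic ribosomal protein and 1 lysosomal gene fell. In the main comparison the median log2 fold changes of these lists lay between -0.04 and 0.01. Of 49 proteasome subunits 1 rose, the immune-type regulator Psme1 (0.36, adjusted p = 0.0013). Of 13 mitochondrially encoded subunits 4 fell, but 1 fell without the libraries high in thalamic genes, none against WT mice without IPTG, and 1 without LacQ140 F4, LacQ140 M3, WT + IPTG F2 or WT + IPTG F5 alone. Among cytosolic chaperones Chordc1, a cochaperone of Hsp90, was at 32.3 to 49.8 CPM (median 43.8) and 14.0 to 29.6 CPM (median 25.1) with no overlap (change of -0.77 on the log2 scale, SE 0.113, adjusted p = 9.32e-07), and Hspa8 was not called (-0.06, adjusted p = 0.559). In the list of 35 cytosolic chaperones 3 fell and 1 rose, with 5 fallen without the libraries high in thalamic genes and 6 against WT mice without IPTG.

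Among stress and repair genes, Cdkn2a, which encodes inhibitors of the cell cycle, was at 0.0191 to 0.217 CPM (median 0.0838) and 0.264 to 0.702 CPM (median 0.381) with no overlap (change of 1.91 on the log2 scale, SE 0.266, adjusted p = 2.93e-07), a rise at a very low level. Of 19 p53 targets and cell cycle genes 2 rose and 1 fell (none fell in either alternative above). Of 29 antioxidant enzymes 3 fell, with Gpx6 as given above and the extracellular superoxide dismutase Sod3 from 9.69 to 6.75 CPM (-0.52, adjusted p = 1.63e-04), and none rose. In the mismatch repair list, which holds genes known to modify CAG repeat expansion, 2 of 13 rose. The exonuclease Exo1 was at 0.247 to 0.451 CPM (median 0.356) and 0.608 to 1.39 CPM (median 0.758) with no overlap (change of 1.22 on the log2 scale, SE 0.182, adjusted p = 1.27e-06), and the endonuclease subunit Mlh3 was not called (0.14, adjusted p = 0.076). The nuclease Fan1 rose from 9.004 to 11.4 CPM (0.34, adjusted p = 2.12e-04) but was not called against WT mice without IPTG (0.19). Of 19 clock genes 3 fell, among them Arntl (-0.36, adjusted p = 1.83e-04). Of 35 immediate early genes 3 rose and 1, Homer1, fell, with Gadd45b from 15.0 to 20.6 CPM (0.46, adjusted p = 0.0022), and Egr1 was not called (-0.10, adjusted p = 0.774). The balance of the immediate early genes turned against WT mice without IPTG, with 4 fallen and 2 risen, and was 2 fallen and 3 risen without the libraries high in thalamic genes. Of 30 brakes on MAP kinases 6 fell and 4 rose, with Spred1 from 165 to 118 CPM (-0.49, adjusted p = 3.22e-06) and Dusp14 from 70.6 to 44.6 CPM (-0.66, adjusted p = 3.66e-04). The risen brakes numbered 3 without the libraries high in thalamic genes and 1 against WT mice without IPTG.

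Myelin genes were lower in every LacQ140 mouse when summed. Of 18 oligodendrocyte genes 8 fell and none rose, and the summed level was 14524 to 18515 CPM (median 16432) in WT + IPTG mice and 11037 to 13934 CPM (median 12857) in LacQ140 mice, with no overlap and a decrease of the mean by 23.3%. Mal, a protein of myelin lipid rafts, was at 615 to 850.2 CPM (median 735) and 412 to 534 CPM (median 487) (change of -0.58 on the log2 scale, SE 0.0597, adjusted p = 6.51e-11), and Ugt8a, the enzyme that makes galactocerebroside, fell from 62.4 to 37.7 CPM (-0.72, adjusted p = 2.44e-05). Neither overlapped between the groups. Ermn fell from 158 to 117 CPM (-0.44, adjusted p = 2.65e-05), while Mog (-0.09, adjusted p = 0.472) was not called, nor were the lineage factors Olig1 (-0.04), Olig2 (-0.12) and Sox10 (0.06). Of 10 genes of oligodendrocyte precursors 1 fell, Gpr17, which was not called without the libraries high in thalamic genes (-0.26), and Pdgfra (0.04, adjusted p = 0.843) and Cspg4 (0.18, adjusted p = 0.116) were not called. The oligodendrocyte list held 6 fallen genes without the libraries high in thalamic genes and 8 against WT mice without IPTG.

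Of 18 microglia genes 8 fell and none rose, with 4 fallen without the libraries high in thalamic genes, 6 against WT mice without IPTG and 5 without WT + IPTG M1. Fcrls was at 20.2 to 33.0 CPM (median 25.9) and 13.3 to 20.1 CPM (median 17.1) (change of -0.58 on the log2 scale, SE 0.0957, adjusted p = 9.45e-06) and Olfml3 at 19.9 to 26.6 CPM (median 21.4) and 12.1 to 17.8 CPM (median 15.7) (change of -0.50 on the log2 scale, SE 0.0987, adjusted p = 1.98e-04), both without overlap, and Gpr34 fell from 17.7 to 11.5 CPM (-0.62, adjusted p = 4.35e-04). Of 18 astrocyte genes 3 fell and none rose, 4 fell without the libraries high in thalamic genes, and 1 fell against WT mice without IPTG or without LacQ140 M2. The water channel Aqp4 fell from 81.3 to 62.9 CPM (-0.37, adjusted p = 3.69e-04), and Gfap (-0.21, adjusted p = 0.053) and Aldh1l1 (0.13, adjusted p = 0.262) did not pass the test. Blood vessel genes were lower in sum: endothelial genes were at 617 to 742 CPM (median 651) in WT + IPTG mice and 507 to 614 CPM (median 572) in LacQ140 mice, with no overlap, although 2 of 14 were called. Without the libraries high in thalamic genes 4 endothelial genes fell, and against WT mice without IPTG 5. Of 10 pericyte and smooth muscle genes 5 fell, with Tagln, an actin-binding protein of smooth muscle, at 20.3 to 25.5 CPM (median 22.4) and 14.2 to 17.0 CPM (median 15.2) with no overlap (change of -0.55 on the log2 scale, SE 0.0765, adjusted p = 3.07e-07).

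Few interneuron markers were called. Of 8 cholinergic interneuron genes 1 rose, Isl1, and Chat, the enzyme of acetylcholine synthesis, was at 33.4 to 48.6 CPM (median 38.99) and 32.9 to 47.05 CPM (median 41.1) (change of -0.01 on the log2 scale, SE 0.0685, adjusted p = 1). Slc5a7 (-0.12, adjusted p = 0.453) and Slc18a3 (0.08, adjusted p = 0.684) were not called either. Of 14 genes of GABAergic interneurons 1 fell, Pvalb (-0.66, adjusted p = 0.039), which the globus pallidus list also holds and which was called in only 10 of 20 fits that each left out 1 mouse. Gad1 was not called (-0.07, adjusted p = 0.559). Markers of neighbouring tissue were present at low level: 3 of 12 cortical excitatory genes fell and 1 rose, 1 of 10 thalamic and hypothalamic genes fell and 2 rose, 2 of 8 pallidal and septal genes fell and 1 rose, and none of 8 blood and pituitary genes was called. Another 3 thalamic and hypothalamic genes passed the test but were left out as called for IPTG alone. The mean summed level in LacQ140 mice was lower by 53.5% for that list, 23.1% for the pallidal and septal list and 11.9% for the blood and pituitary list. It was 4.59% higher for the cortical list. Without the libraries high in thalamic genes 1 cortical gene fell and 1 rose, and no gene of the pallidal list was called. No gene of the thalamic list was called either, which is largely fixed because that list chose the libraries to leave out. Genes called for IPTG alone also stayed left out in that fit. The summed levels overlapped between the groups, and Slc17a7, the cortical vesicular glutamate transporter, was at 2.81 to 73.3 CPM (median 29.1) and 2.75 to 63.5 CPM (median 7.48). Neurod6, a cortical transcription factor, was called (-1.62, adjusted p = 0.037), but not in 11 of 20 fits that each left out 1 mouse.

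Other gene families were near the background or changed in few members. Of 374 solute carriers 28 rose and 19 fell, with 11 risen without the libraries high in thalamic genes. Of 78 motor protein genes 5 rose and 4 fell, of 39 receptor tyrosine kinases 2 rose and 2 fell, and of 20 receptor tyrosine phosphatases 3 rose and none fell, with Ptpro from 30.1 to 40.1 CPM (0.41, adjusted p = 1.21e-07). Of 56 growth factor genes 7 fell and 2 rose, but 1 rose without the libraries high in thalamic genes, and 1 of the 2 was called in only 7 of 20 fits that each left out 1 mouse. The risen Fgf22, an organiser of presynaptic terminals, went from 2.21 to 3.34 CPM (0.59, adjusted p = 1.16e-05). Of 14 brakes on mTOR 1 fell, Ddit4l, and 1 rose, and of 12 ependymal and choroid plexus genes 1 fell (none in either alternative above). Without the libraries high in thalamic genes 2 motor protein genes rose and 7 fell, and no receptor tyrosine kinase rose and 1 fell, while against WT mice without IPTG 2 of these kinases rose and 5 fell. Of 13 abundant nuclear long noncoding RNAs Malat1 (-0.57, adjusted p = 0.0096) and Neat1 (-0.47, adjusted p = 0.019) fell, but neither was called against WT mice without IPTG (-0.26 and -0.30), nor was Malat1 without the libraries high in thalamic genes (-0.56).

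Genes were then sorted by where they are expressed in WT mice without IPTG, whose libraries were in neither group. Of the genes of at least 1 CPM 872 (5.92%) were at least 2-fold higher in striatum than in cortex of the same mice and 792 (5.38%) at least 2-fold higher in cortex. Of the striatum-enriched genes 24.7% fell and 7.22% rose, against 6.31% and 6.93% of the 13065 genes in neither class. At a 4-fold bound for enrichment 35.6% fell. Of the cortex-enriched genes 12.2% rose and 8.71% fell. The striatum-enriched class held 215 of the 1109 fallen genes (a count with no test), and most fallen genes were in neither class.

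The changed genes also differed by level, length and promoter. Of the 4557 genes of 1 to 10 CPM 576 rose and 502 fell, and above 100 CPM 1.88% rose and 6.88% fell. Protein-coding genes with a transcript over 8 kb rose in 8.91% and fell in 3.89% of cases, and those of up to 1 kb rose in 2.51% and fell in 5.02%. Among 11072 genes with a promoter sequence, those with 0 to 4 CpG dinucleotides in 300 bases fell in 17.4% and rose in 7.33% of cases, and those with 30 or more fell in 5.29% and rose in 6.51%. Genes in neither tissue class followed the same order, with 15.4% fallen at 0 to 4 CpG and 4.47% at 30 or more. Striatum-enriched genes did not, with 28.3% fallen at 0 to 4 CpG, 35 of 103 genes at 5 to 9, 17.9% at 10 to 19, 24.0% at 20 to 29 and 24.3% at 30 or more. At 1 to 10 CPM, genes with fewer than 10 CpG fell in 18.4% and rose in 9.53% of cases, and those with 20 or more fell in 6.79% and rose in 15.3%. At 10 to 100 CPM the first fell in 11.6% and rose in 6.6% of cases and the second fell in 4.98% and rose in 4.88%, and above 100 CPM the first fell in 8.59% and rose in 0.781% and the second fell in 5.99% and rose in 1.57%. The fallen share was thus higher with few CpG at each level, while the order of the risen shares differed between levels. These are counts over genes, which are not independent, and were not tested.

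**Figure D4:**
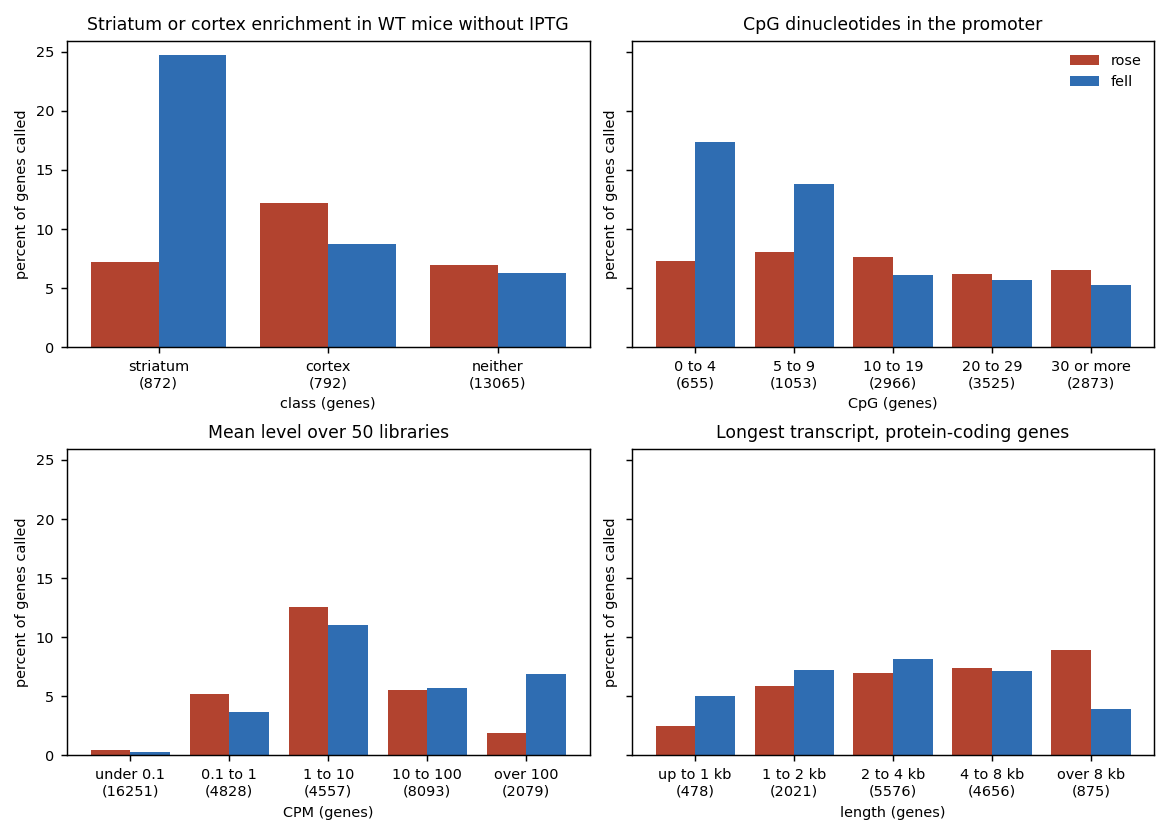
Percent of genes that rose (red) or fell (blue) by tissue enrichment in WT mice, by CpG dinucleotides in the 300-base promoter, by mean CPM and by the longest transcript of protein-coding genes, with the number of genes under each pair of bars. Fallen genes reach 24.7% in the striatum-enriched class and 17.4% at 0 to 4 promoter CpG, and their share drops as CpG number rises.

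Noncoding genes were also counted, with no test. Of long intergenic noncoding RNAs 14.7% rose and 11.4% fell, and of antisense RNAs 13.4% rose and 10.0% fell, against 6.92% and 7.28% of protein-coding genes, all of at least 1 CPM. Levels were not matched here, and of all genes of 1 to 10 CPM 12.6% rose. Processed pseudogenes rose in 4.21% and fell in 5.26% of cases. Antisense RNAs cannot be told apart from their partners if the counting did not use the strand. The host gene of miR-22, Mir22hg, was at 15.6 to 24.7 CPM (median 20.1) and 22.3 to 37.3 CPM (median 28.0) (change of 0.52 on the log2 scale, SE 0.0898, adjusted p = 2.07e-05). Abhd11os, annotated on the strand opposite to Abhd11, was at 15.7 to 29.4 CPM (median 24.3) and 8.68 to 16.4 CPM (median 12.4) (change of -0.91 on the log2 scale, SE 0.121, adjusted p = 9.26e-08). Both mitochondrial ribosomal RNAs fell, mt-Rnr1 (-0.49, adjusted p = 5.12e-06) and mt-Rnr2 (-0.45, adjusted p = 4.75e-04), and of the abundant nuclear RNAs Meg3 was not called (0.01, adjusted p = 1). Around the knocked-in locus, 4 of 53 genes of at least 1 CPM within 2 Mb of Htt rose and 2 fell. These shares were 7.55% and 3.77%, against 7.24% and 7.53% of all genes of at least 1 CPM. Mfsd10, a membrane transporter, was among the risen, from 10.6 to 14.5 CPM (0.45, adjusted p = 4.38e-04).

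The change was measured in 5 females and 5 males of each group, and no gene differed in its change between the sexes by the edgeR test (0 of 35808 genes, 0.0%). At an unadjusted p under 0.05 there were 1385 such genes, DESeq2 also called 0 (1085 unadjusted), and the lowest adjusted p of the edgeR test was 0.551. Of the 2175 called genes of at least 1 CPM 2172 had the same sign in both sexes, although the calls themselves used both. The median size of their log2 fold changes was 0.417 in females and 0.344 in males. Pde10a was at log2 fold changes of -0.66 in females and -0.53 in males, and Penk at -0.66 in females and -0.78 in males. For Gpx6 these values were -2.06 in females and -2.16 in males, and for Polr2a 0.84 in females and 0.85 in males.

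The cortex of the same mice was used to ask which changes differed between the 2 tissues, in 1 fit over 100 libraries with the mouse as a block. For 453 of 37981 genes (1.19%) the change in striatum differed from that in cortex (692 with filterByExpr, 252 without the mouse as a block). Of the 453 genes 214 differed towards higher and the rest towards lower values in striatum. Of the called striatal genes 160 risen and 177 fallen ones were among them, and in each of these 337 the striatal change was the one further in the direction of its call, which choosing them by both tests largely fixes. For those of at least 1 CPM the median log2 fold change was 0.44 in striatum and 0.01 in cortex for risen genes, and -0.49 and 0.00 for fallen genes, which that choice also shapes. Calls without such a difference are not shown to be shared by the tissues.

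Among the genes with the smallest p for this difference, Arpp19 had a log2 fold change of -0.81 in striatum and -0.05 in cortex (difference -0.77, SE 0.0890, adjusted p = 3.37e-08). Ddit4l was at -1.63 and 0.00 (-1.64, SE 0.112, adjusted p = 2.56e-16), Cpne9 at -1.45 and 0.07 (-1.52, SE 0.142, adjusted p = 6.90e-11), and Krt9 at -1.25 and -0.04 (-1.21, SE 0.133, adjusted p = 8.98e-09). For these 4 genes the cortical estimates were close to 0. Nrep, which encodes a neuronal protein, behaved likewise, with a difference of -0.68, SE 0.0724, adjusted p = 3.20e-09. Among risen genes Polr2a was at 0.85 in striatum and 0.15 in cortex (0.68, SE 0.0998, adjusted p = 8.98e-06), Sfmbt2 at 1.295 and 0.13 (1.16, SE 0.158, adjusted p = 1.73e-06), Tnnt2 at 0.92 and -0.04 (0.95, SE 0.117, adjusted p = 2.18e-07), and Kcng1 at 0.66 and -0.36 (1.02, SE 0.107, adjusted p = 2.87e-09). The immediate early gene Dusp1 was at 0.09 in striatum, where it was not called, and at 0.63 in cortex (-0.55, SE 0.0704, adjusted p = 5.48e-07). Abhd1, in contrast, was at 1.36 and 1.65, and Gpx6 at -2.11 and -0.50, and the difference between tissues did not pass the test for either (adjusted p = 0.213 and 0.159).

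**Figure D5:**
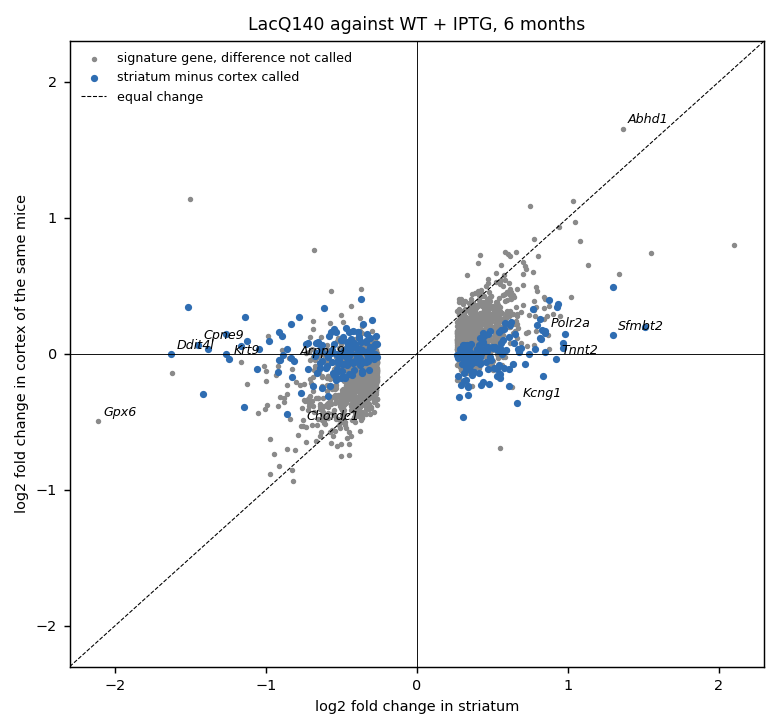
Log2 fold change of LacQ140 against WT + IPTG in striatum (horizontal) and in cortex of the same mice (vertical) for the 2175 called striatal genes of at least 1 CPM, with the line of equal change dashed. The genes whose change differed between the tissues (blue), chosen for that difference, lie closer to 0 on the cortical axis than on the striatal one, while Abhd1 lies near the line of equal change.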

How the data were processed

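RNA of right striatum was sequenced as described for the groups above, and the authors deposited expected counts per gene for all 6-month libraries (annotation GENCODE vM21 by its gene identifiers, GRCm38 per the submitters' processing notes). The aligner, the quantifier and the use of strand are not given in the sources used here, and a second table of older mice was not used here. Counts were rounded to whole numbers and fitted with edgeR 4.0.16 in R 4.3.3 (TMM, quasi-likelihood F-test, two-sided, Benjamini-Hochberg over all 35808 genes with a count), with all 50 striatal libraries sharing 1 estimate of the spread. Calls needed an adjusted p under 0.05 and a change of at least 1.2-fold, and genes called for IPTG alone in WT mice were left out. Effects by sex were tested on group by sex means, and those by tissue with the mouse as a block. Alternatives were DESeq2 1.42.0, other filters, size factors, covariates, controls, bounds and each mouse left out. The fits were tested on simulated data. No 2 libraries of a group agreed within sampling noise. Depth was 39311720 to 63600039 counts a library, which limits precision mainly below 1 CPM.

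The members and the 62 gene lists were chosen with earlier results of these data known, so no list is independent support. Genes were named by rule: Htt, genes the study's text names, the 12 largest risen and fallen called genes with a mean of at least 1 on the log2 CPM scale and no overlap, in each list up to 4 called members a direction with the smallest p, the member with most counts and, for cell types, the first 3 markers, and up to 6 genes a direction for the tissue difference. A few of the genes so chosen are not reported here. Promoters and their coordinates were taken from RefSeq (GRCm38.p6) for 11072 symbols. Figures were drawn with matplotlib 3.10.9 in Python 3.11.15.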

Additional observations from a re-analysis of the deposited data

Results flagged for a closer look

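The change in LacQ140 mice differed between striatum and cortex for 453 genes by the edgeR test of the difference itself. For the genes of at least 1 CPM with the smallest adjusted p in each direction, the striatum minus cortex difference on the log2 scale was 1.16 for Sfmbt2, 1.02 for Kcng1, 0.95 for Tnnt2, 0.79 for Islr2 and 0.68 for Polr2a. In the other direction it was -1.64 for Ddit4l, -1.52 for Cpne9, -1.21 for Krt9, -0.77 for Arpp19, -0.68 for Nrep and -0.55 for Dusp1.

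Single mice stood apart from the other 9 of their group in 33 of 428 values tested by Dixon's criterion, which chance alone passes in about 1 of 20 groups, and 13 of the 33 came from LacQ140 F5. Their cause was not tested. In LacQ140 F5 the summed level of p53 targets and cell cycle genes was 948 CPM (others 746 to 841), while that of mismatch repair genes was 153 CPM (others 172 to 183). The same mouse was high for Gm41442 (11.9 CPM), Slc16a14 (8.15 CPM), Gadd45b (36.7 CPM), Cbx2 (8.86 CPM), Pcgf2 (32.8 CPM), Zfp13 (25.6 CPM) and Sesn2 (16.8 CPM). It was low for Arpp19 (353 CPM), Gpr149 (9.86 CPM), Mlh3 (24.6 CPM) and Gpr34 (6.58 CPM). LacQ140 F1 was high for the cortical genes Neurod6 (3.41 CPM, others 0.136 to 0.803) and Cck (21.2 CPM) and for Rgs14 (107 CPM). Other LacQ140 mice stood apart for 1 or 2 values each. These were the oligodendrocyte precursor sum (365 CPM) and Spc24 (2.47 CPM) in M5, Cpne9 (8.89 CPM) in M1, Ptprv (4.43 CPM) in M4 and Rgs20 (31.2 CPM) in F4.

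Among WT + IPTG mice, M5 was high for the sum of ependymal and choroid plexus genes (1143 CPM, others at most 393), for Ttr (688 CPM), for Cbx8 (15.9 CPM) and for the Hox sum (0.442 CPM). F5 was high for the thalamic and hypothalamic sum (219.8 CPM, others 28.97 to 125.4), the astrocyte sum (10820.0 CPM) and Aqp4 (112 CPM). F2 was high for Homer1 (210.2 CPM), Spred1 (219 CPM) and Pcdhb22 (8.12 CPM), F1 for Nts (19.9 CPM) and M1 for Olfml3 (26.6 CPM).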

How the results depend on the processing

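No alternative gave a gene a call opposite to its main one, and the number of called genes stayed between 2388 (without LacQ140 F5) and 2857 (without WT + IPTG M4) when 1 mouse was left out. The numbers were 2673 by DESeq2, 2734 with DESeq2 size factors in edgeR, 2849 with filterByExpr, 2787 with sex as a covariate, 2901 with the transcript length slope of each library as a covariate, 2757 with only the 20 libraries in the fit, 2662 with both WT groups pooled as the control and 2840 with IPTG-responsive genes kept. Larger moves were 778 with a 1.5-fold bound, 4083 with no bound (within 1.5 times the main number) and 1635 without the 5 WT + IPTG libraries high in thalamic genes, a fit with fewer control libraries that was chosen after seeing the data, as was the one with the thalamic list as a covariate (2345). The 1635 included 50.6% of the main calls, and the 2043 against WT mice without IPTG included 48.9%. Of 300 called genes that the naming rule chose, 164 were called in every alternative with the 1.2-fold bound and 2 changed sign in any. Ntng1 was at 0.064 against WT mice without IPTG, 0.32 without the 5 libraries and 0.10 with the thalamic covariate, and Btg2 was at -0.037 against WT mice without IPTG. The cause was not tested. Replicate numbers were not taken to pair the mice, because the labels give them no shared origin and not every pair's deviations correlated above 0.1 (8 of 10 pairs did, lowest -0.148). The mean was 0.167 against 0.129 for other pairs of the same sex, and 2 LacQ140 mice correlated best with their own number. With the number as a block 2689 genes were called. The difference between tissues was called for 692 genes with filterByExpr, where fewer genes were tested, and for 252 without the mouse as a block. With the 4-fold bound 93 striatum-enriched genes fell in place of 215. The test of the effect by sex called 0 to 4 genes when 1 mouse was left out, the 4 without WT + IPTG M4. Genes under 1 CPM rest on few counts, so their fold changes are the least certain.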
